A study of Mus musculus with 9 samples.

Results

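The plasma membrane and lysosomal carriers that move amino acids and neurotransmitters were examined as 67 of the 36410 gene rows in ribosome footprint counts from 3 immortalized mouse striatal cell lines. A row was a member when its symbol placed it in solute carrier (SLC) family 1, 3, 6, 7, 36, 38 or 43. This rule used names only and no measured value, but it was chosen with earlier results of these data known. The control line, STHdhQ7/Q7, reported as derived from wild-type embryos, has a huntingtin gene (Htt) whose repeat encodes 7 glutamines. STHdhQ7/Q111, called HD-het, has 111 glutamines in 1 of its 2 Htt alleles, and STHdhQ111/Q111, called HD-homo, has them in both. All are labelled striatal, from strain C57/BL6, and all were given cycloheximide, which stops elongating ribosomes, for 10 min before harvest. Each genotype was 1 line with 3 libraries, so genotype and line cannot be told apart. Nothing in the labels says whether the 3 libraries of a line came from separate cultures, so the p-values measure only the spread between these libraries, which may be technical.

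Amino acid carriers are grouped by what drives them. SLC1 carriers take up glutamate or exchange small neutral amino acids on the sodium gradient, and SLC6 carriers use sodium and chloride to take up neurotransmitters, taurine, creatine and glycine. SLC7 light chains exchange large neutral amino acids or cystine when paired with an SLC3 heavy chain, while the cationic members of SLC7 work alone. Some SLC36 carriers are driven by protons, SLC38 carriers take up glutamine and alanine with sodium, and SLC43 carriers let their substrates pass without coupling. In the striatum, clearance of glutamate is mostly the work of astrocytes, and the projection neurons and their inputs recover GABA and dopamine.

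Counts are given as counts per 1000000 of a library's total over the genes tested, after composition scaling (CPM). Whole library totals ran from 22504543 to 41888701 counts, and 3 counts, the limit that a count of 0 allows, equal 0.0714 to 0.142 CPM depending on the library. This limit covers counting error only. Footprints follow both mRNA amount and ribosome load, and mRNA libraries were not used here, so these are not told apart, nor are fewer cells with a transcript and less of it per cell. The neuronal and striatal markers were mixed. Tubb3 averaged 84.2 to 102 CPM and Map2 44.3 to 55.3 CPM over the lines, while the synaptic genes Snap25 and Syt1 never exceeded 2 counts. Of 8 markers of striatal projection neurons, Foxp1 averaged 33.5 to 56.9 CPM and Ppp1r1b (DARPP-32) 5.18 to 12.04 CPM, while the dopamine receptors Drd1 and Drd2 had no count in any library and Bcl11b never exceeded 2. Most of the summed level of these 8 was Foxp1. The sum was 67.5 to 75.1 CPM in HD-homo, 43.8 to 50.3 CPM in control and 46.9 to 50.9 CPM in HD-het. Foxp1 alone averaged 56.9 CPM in HD-homo, 33.5 CPM in control and 43.1 CPM in HD-het. Penk was also highest in HD-homo, at 2.92 CPM beside 1.42 CPM in control and 0.824 CPM in HD-het. Ppp1r1b was not, at 10.5 CPM in HD-homo beside 12.04 CPM in control and 5.18 CPM in HD-het. Of 5 astrocyte markers, Aldoc averaged 5.73 to 7.35 CPM and Gfap 0.950 to 1.15 CPM, Aqp4 was at 0 and S100b never exceeded 3 counts.

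Both mutant lines stood apart from control in other markers. HD-homo was lowest in the sum of 5 neural precursor markers, nearly all of it Vim, at 5988 to 6521 CPM beside 9583 to 9851 CPM in control and 8988 to 9818 CPM in HD-het. Among these, Nes averaged 7.01 ± 0.611 CPM in HD-homo, 399.6 ± 82.7 CPM in control and 1086 ± 77.8 CPM in HD-het (SD, n = 3 libraries, as throughout). Sox2 averaged 2.26 ± 0.469 CPM in HD-homo, 51.2 ± 3.72 CPM in control and 33.9 ± 4.52 CPM in HD-het, and Pax6 was at 0.076 ± 0.070 CPM in HD-homo beside 17.3 ± 1.41 and 24.8 ± 1.48 CPM. The sum of 5 mesenchyme and pericyte markers, at 24413 to 26016 CPM in HD-het, was 6135 to 8620 CPM in control and 5251 to 6688 CPM in HD-homo. Within it HD-homo was lowest in Acta2, at 268 ± 81.0 CPM against 4100.2 ± 284 CPM in control and 8388 ± 1047 CPM in HD-het, and highest in Col1a2, at 1027 ± 135 CPM against 24.03 ± 5.51 and 88.9 ± 27.1 CPM. The sum of 5 microglial markers, nearly all of it Tmem119, was 18.6 to 26.8 CPM in HD-het, 4.93 to 6.65 CPM in control and 4.63 to 6.17 CPM in HD-homo, with Cx3cr1 at 0 and Aif1 never above 1 count. These differences lie in the same comparisons as the carrier results of HD-het and HD-homo below, and their part in those results was not tested.

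Of the 67 members, 12 had no count in any library, 18 were counted but too low to test, with at most 27 counts in a library, and 37 passed the filter on low counts. Of those 37, 26 had at least 10 counts in every library and 11 did not. A member of the latter kind could enter the test through the line in which it was high. Among the members at 0 were Slc7a10, the alanine-serine-cysteine light chain Asc-1, and 3 of the 4 rows named for the opposite strand of a carrier. The remaining row, Slc7a6os, is a protein-coding neighbour of Slc7a6 and no carrier, and is described by itself.

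Members took 0.188 to 0.201% of all counts in control, 0.234 to 0.255% in HD-het and 0.131 to 0.151% for HD-homo, and the 3 ranges did not overlap. Most of this was due to 3 genes in each line: Slc38a2 and Slc3a2, both described below, and the taurine carrier Slc6a6 together made up 64.3 ± 0.499% of the member counts in control, 62.6 ± 1.44% in HD-het and 56.7 ± 2.19% for HD-homo. Their order changed. Slc38a2 led in every control library, with 27.2 ± 2.26% of member counts, and fell to 13.9 ± 1.50% in HD-het. There Slc6a6 had the highest mean share, 26.0 ± 3.50%, but Slc3a2 was above it in HD-het replicate 3. In HD-homo, Slc6a6 held 10.6 ± 0.692% and Slc3a2 held 23.3 ± 2.10%. Slc38a2 overlapped Slc3a2 in its HD-homo shares and was above it in HD-homo replicate 2, so neither led in every library of that line.

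**Figure D1:**
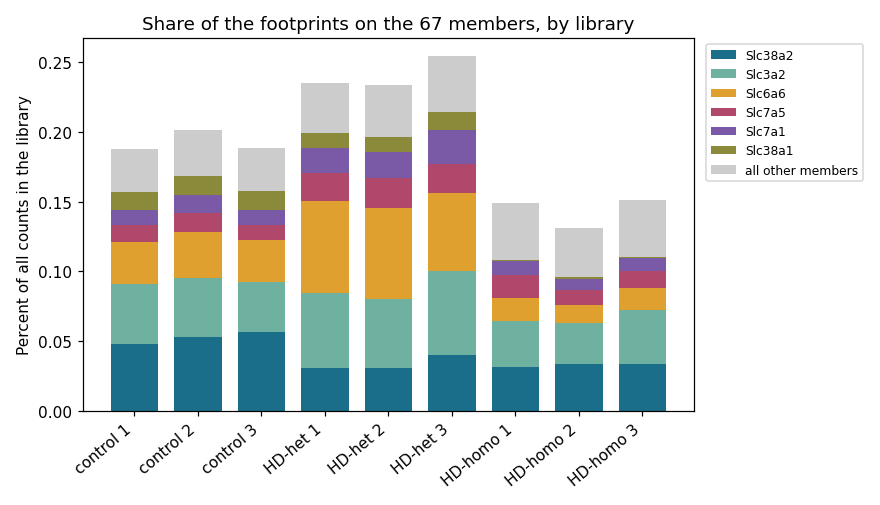
Each bar is 1 library, and its height is the percent of all counts that fell on the 67 members. Colours separate the 6 members with the most counts from all others, and the HD-het bars are the tallest and the HD-homo bars the shortest.

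Per kilobase of coding sequence, which allows levels to be compared between genes, Slc38a2 stood first in control at 344 ± 20.4 CPM per kb, above Slc3a2 at 237 ± 26.3 and Slc6a6 at 166 ± 11.0. In HD-het, Slc6a6 at 345 ± 18.7 CPM per kb and Slc3a2 at 333 ± 47.2 overlapped in their library values, and Slc38a2 followed at 230.5 ± 46.3. Slc38a2 at 211 ± 8.25 CPM per kb and Slc3a2 at 194 ± 33.2 overlapped in HD-homo, and Slc6a6 had dropped to 79.9 ± 11.8. Of the carriers below these, Slc7a5 and Slc7a1 were within the first 7 members tested in every line, and Slc38a1 held rank 4 in control and rank 6 in HD-het.

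**Figure D2:**
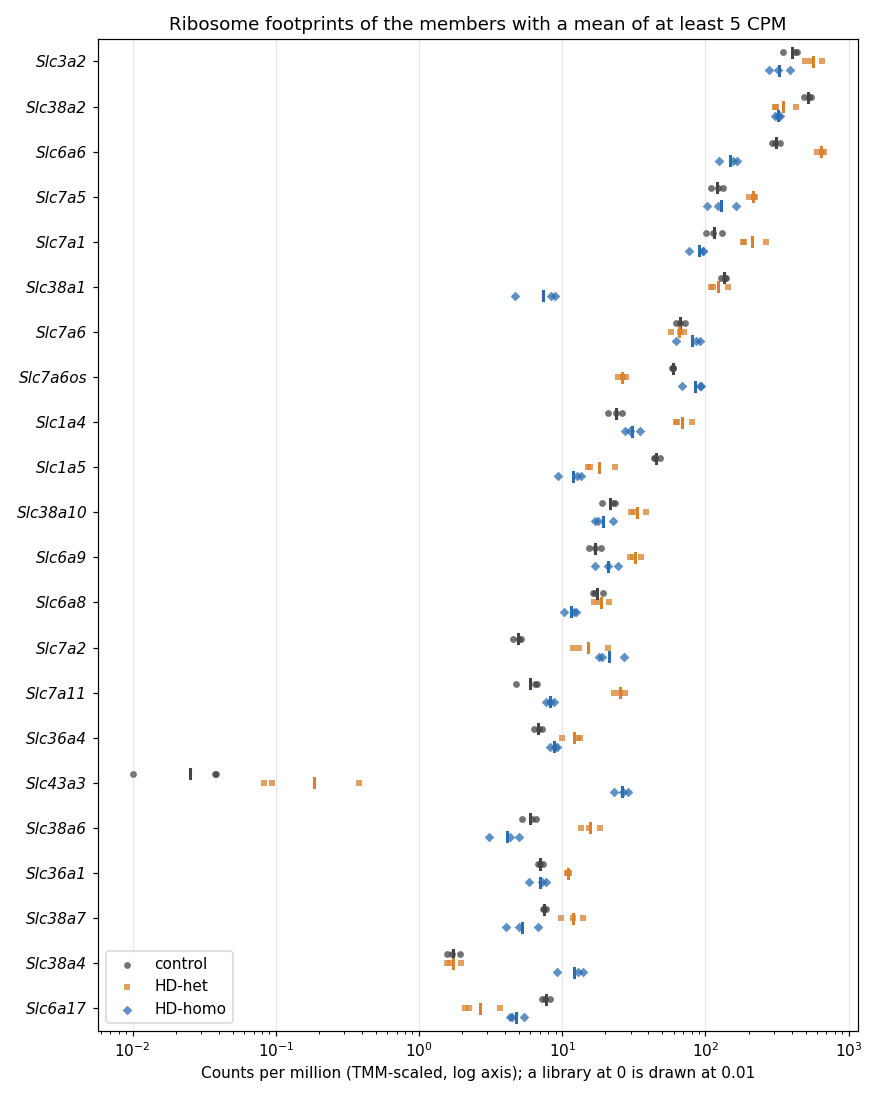
Points are single libraries and short bars are means of 3, in CPM on a log axis, for the 22 members whose mean over all 9 libraries was at least 5 CPM. Slc38a1 in HD-homo and Slc43a3 in control and HD-het lie farthest from the other lines.

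Most carriers tested were higher in HD-het cells than in the other lines. Against control, 24 of the 37 members tested were higher in HD-het and 5 were lower, or 64.9% and 13.5%, where 31.0% and 29.1% of all 12678 genes tested were called higher and lower (edgeR quasi-likelihood F test, adjusted p under 0.05 over all genes tested). The median log2 fold change was 0.83 over the members and 0.02 over all genes. A change of at least 2-fold was called upward for 14 members and downward for 3, against 13.9% and 6.91% of all genes. In a fit of the 11071 genes with at least 10 counts in every library, 16 of 26 members were higher and 4 lower, beside 30.3% and 29.2% of those genes.

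HD-homo cells differed from control in both directions. Here 11 members were higher and 11 lower, 29.7% each, beside 23.3% and 22.3% of all genes, and the median log2 fold change was -0.28 for members and 0.02 for all genes. At least 2-fold changes were called for 6 members upward and 6 downward, beside 8.94% and 8.27% of all genes. With at least 10 counts in every library, 8 of 26 members were higher and 8 lower, beside 21.4% and 20.9% of those genes. The count of higher members fell to 7 without control replicate 3 and to 7 without HD-homo replicate 1. HD-homo against HD-het gave 6 higher and 26 lower members, or 16.2% and 70.3%, beside 34.6% and 32.8% of all genes, with medians of -0.80 and 0.02. Of these, 5 were higher and 18 lower by at least 2-fold, beside 11.1% and 16.2% of all genes. With at least 10 counts in every library, 4 of 26 were higher and 17 lower, beside 33.5% and 32.3% of those genes. Any difference among the 3 lines was called for 33 members, 89.2%, beside 78.4% of all genes. Each pair of these comparisons shares the libraries of 1 line, so they are not independent of each other.

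**Figure D3:**
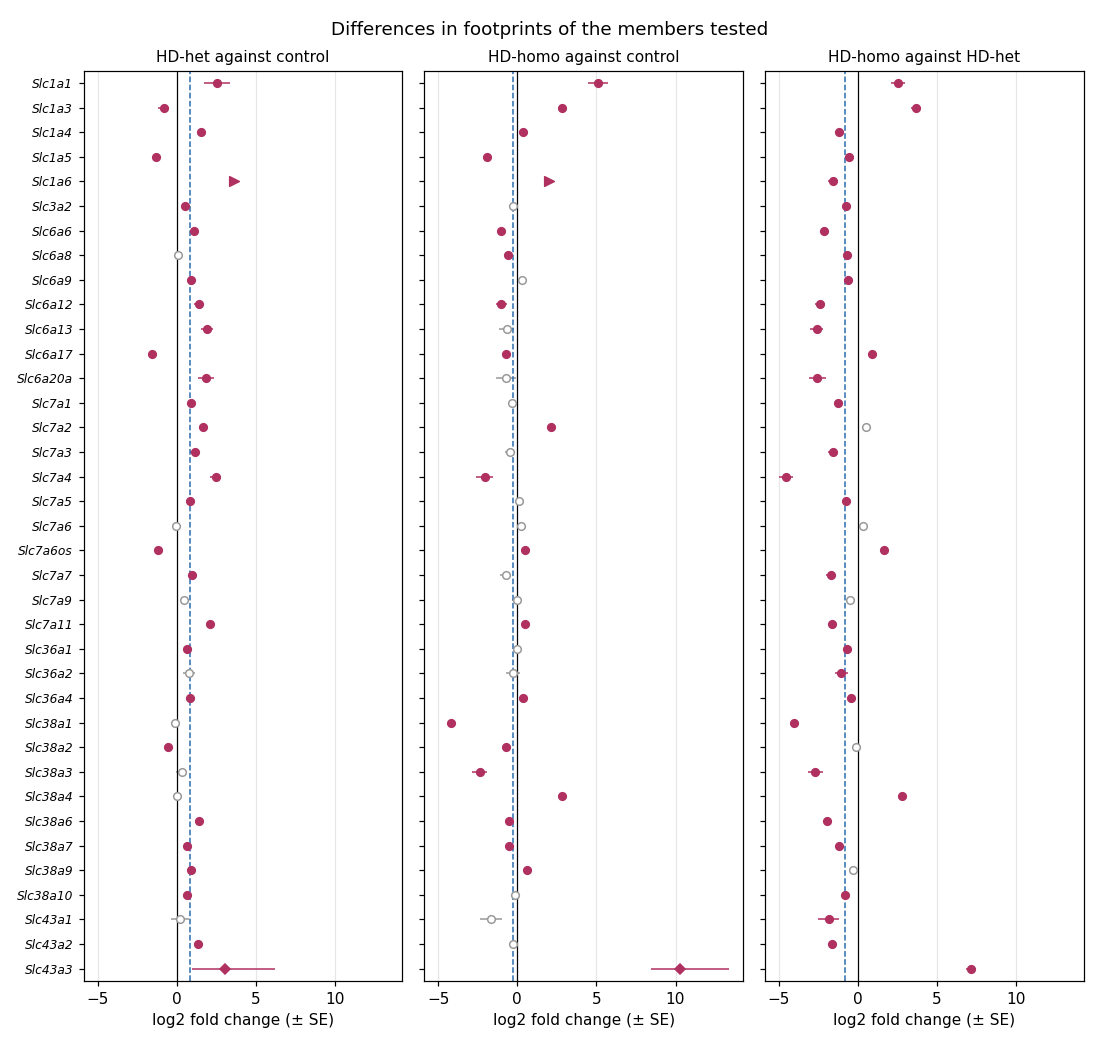
Each panel shows 1 comparison, with the log2 fold change of the first line over the second on the horizontal axis and the 37 members tested in rows by family. Circles are fitted values with SE bars, filled where called. Triangles are lower bounds for Slc1a6, diamonds are count ratios with 95% counting intervals for Slc43a3, and the dashed line is the members' median, right of 0 in the HD-het panel and left of 0 in the others.

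By family, the rise in HD-het against control covered 5 of 7 SLC6 members tested and 7 of 10 in SLC7. SLC38 had 4 of 8, SLC1 3 of 5, SLC36 and SLC43 2 of 3 each, and the sole SLC3 member also rose. Of all genes tested, 31.0% were higher in this comparison. The 10 in SLC7 include Slc7a6os, which is no carrier. In HD-homo against control, none of the 7 SLC6 members was higher and 4 were lower, beside 23.3% and 22.3% of all genes. Of 8 SLC38 members, 5 were lower and 2 higher, and 4 of 5 SLC1 members were higher. Those 4 include Slc1a6, with no count in control, and Slc1a1, with 5, 0 and 1 counts there. They also include Slc1a4, whose call was lost in several fits. The families are small, and their shares were not tested against those of all genes.

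Slc3a2 encodes the CD98 heavy chain, which brings SLC7 light chains to the cell surface. It lay at 433, 421 and 350.3 CPM in control, 549.7, 494 and 652 CPM in HD-het, and 320.5, 277 and 389 CPM in HD-homo. Every HD-het library was above every other, while control and HD-homo overlapped. The rise in HD-het over control was 0.49 on the log2 scale (SE 0.14, adjusted p 0.00996), and without HD-het replicate 3 it was no longer called (adjusted p 0.0533). HD-homo fell by 0.78 from HD-het (SE 0.14), and its difference from control, -0.29 (adjusted p 0.115), was called only without HD-homo replicate 3 among the fits that left out a library (adjusted p 0.0336).

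Its light chain Slc7a5, or LAT1, imports leucine, tryptophan and other large neutral amino acids and carries them into the brain. Slc7a5 measured 122, 132 and 110.1 CPM in control, 201, 218 and 221 CPM in HD-het and 164, 102 and 123 CPM in HD-homo, so HD-het was again apart. The difference between HD-het and control was 0.81 (SE 0.15, adjusted p 0.000605), and HD-homo against control was 0.10 and not called (adjusted p 0.63). Slc7a6, the light chain y+LAT2 that exchanges arginine for glutamine, was not called in any comparison. Its libraries held 66.3, 71.8 and 62.5 CPM in control, 57.8, 65.9 and 70.9 CPM in HD-het and 86.4, 62.7 and 91.4 CPM in HD-homo. Without HD-homo replicate 2, the lowest of its line, Slc7a6 was higher in HD-homo than in control (adjusted p 0.00734) and in HD-het (adjusted p 0.00226). The difference from HD-het was also called with library totals (adjusted p 0.0145), without a filter (adjusted p 0.0485) and with offsets for GC content and length (adjusted p 0.0198).

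Slc7a11, or xCT, is the light chain that imports cystine for glutathione in exchange for glutamate. It had 6.45, 6.71 and 4.78 CPM in control, 23.0, 25.5 and 27.6 CPM in HD-het and 8.79, 8.18 and 7.67 CPM in HD-homo. No library of 1 line overlapped another line, and HD-het was higher than control by 2.08 on the log2 scale, a 4.22-fold difference (SE 0.14, adjusted p 5.74e-07). HD-homo was higher than control by 0.45 (SE 0.14, adjusted p 0.0209), a call lost without control replicate 3 (adjusted p 0.0748) or without HD-homo replicate 1 (adjusted p 0.0622). Summed per kilobase, Slc7a11 made up 3.13 ± 0.337% of the level of the heavy chain's 6 light chains in control, 8.49 ± 0.272% in HD-het and 3.93 ± 0.772% for HD-homo. The heavy chain stood at 1.87 ± 0.125 times the summed light chains in control, 1.68 ± 0.211 times in HD-het and 1.39 ± 0.242 times for HD-homo. Control and HD-het overlapped in this ratio, and HD-homo lay below control in every library. These are ratios of footprints per kilobase, not of protein.

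**Figure D4:**
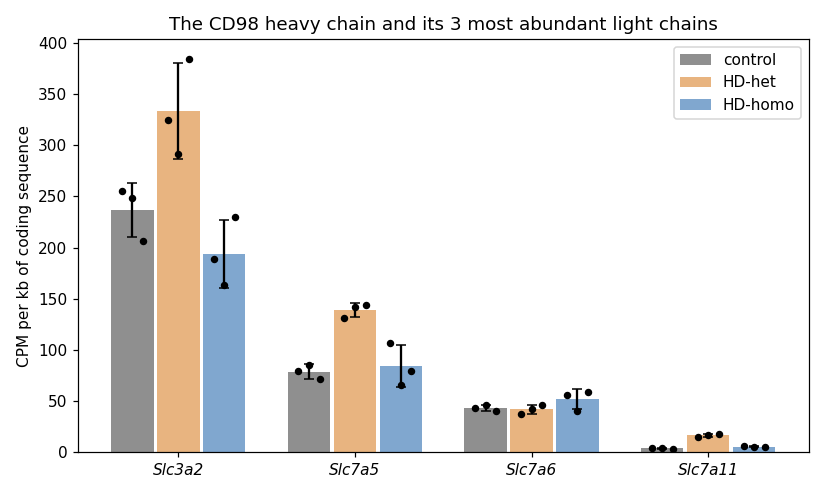
Bars are means in CPM per kb of coding sequence, error bars are SD over 3 libraries and points are single libraries. Slc3a2, Slc7a5 and Slc7a11 are highest in HD-het, and Slc7a6 overlaps between all lines.

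Promoters were searched because Slc7a11 and Slc1a4, an exchanger of serine, alanine and cysteine, rose in HD-het together with Atf4, the transcription factor of the amino acid response. The search covered 70 RefSeq windows of 49 members (GRCm38.p6, from 250 bases before to 50 after a start site), both strands, for the letters TGATGCAA, the core at which ATF4 and C/EBP proteins bind. The letters were found in 294 of all 32851 windows, 0.895%, and in 0.589% of the 12731 windows of genes tested. They were in 4 member windows, 5.71%, which belong to 3 genes. Among these are Slc7a11 and Slc1a4, whose values prompted the search, so the member share cannot show an enrichment. The member windows also include those of members not tested. Slc7a11 held 2 copies in opposite orientation, and Slc1a4 held 1 across its start site. Of the 5 windows of Slc7a7, a light chain that exchanges arginine, 2 held the same site. These stretches are shown because they carry the letters, in capitals, within the members that were higher in HD-het. They lie at chr3:50443624-50443713, chr11:20332710-20332803 and chr14:54417938-54418034, each on the minus strand and written 5′ to 3′ along the gene. The first ends 10 bases before the start site, the second includes 4 transcribed bases and the third 7.
Slc7a11: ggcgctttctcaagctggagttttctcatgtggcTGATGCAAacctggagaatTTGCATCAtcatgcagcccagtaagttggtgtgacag
Slc1a4: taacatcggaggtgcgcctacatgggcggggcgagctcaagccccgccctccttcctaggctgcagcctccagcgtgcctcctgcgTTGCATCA
Slc7a7: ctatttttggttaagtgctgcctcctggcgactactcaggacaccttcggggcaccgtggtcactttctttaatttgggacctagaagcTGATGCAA

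Slc7a7 was counted 8, 19 and 11 times in control, 26, 24 and 15 times in HD-het and 10, 6 and 4 times in HD-homo. It was called higher in HD-het than in control, but not by DESeq2 (adjusted p 0.0594), without control replicate 1 (adjusted p 0.0553) or without HD-het replicate 1 (adjusted p 0.0655). A match of letters is a description and not evidence of binding, and most members that rose in HD-het had no match in their windows. TGACNNNGC, the core of the antioxidant response element, was in 12 member windows, 17.1%. It was in 12.4% of all windows and in 14.4% of the windows of genes tested. CACGTG, the E-box bound by MYC and by lysosomal gene regulators, was in 9 member windows, 12.9%. Of all windows 7.15% held it, and of the windows of genes tested 9.80%. In Slc36a1 a match to the first of these overlapped a match to the second.

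Atf4 itself had 43.5, 38.4 and 41.5 CPM in control, 87.5, 90.2 and 82.6 CPM in HD-het and 45.5, 45.0 and 69.5 CPM in HD-homo. The rise in HD-het was 1.08 (SE 0.15), and HD-homo against control was 0.37 and not called (adjusted p 0.0614). Trib3, a pseudokinase induced by ATF4, had 5.73, 5.38 and 4.78 CPM in control, 35.5, 34.2 and 35.8 CPM in HD-het and 7.45, 8.45 and 14.5 CPM in HD-homo, a rise of 2.73 (SE 0.21) in HD-het and of 0.92 (SE 0.21) in HD-homo. Both genes were highest in HD-het. Of the 37 members tested, 24 were higher in HD-het than in control, Slc7a11 and Slc1a4 among them. Slc38a2, described below, was lower there. Any part of ATF4 in these values was not tested.

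Cationic carriers import arginine, lysine and ornithine. Slc7a1, or CAT-1, the form found in most dividing cells, lay at 113, 129.6 and 101 CPM in control, 184, 185 and 264 CPM in HD-het and 96.2, 76.9 and 96.8 CPM in HD-homo. HD-het was higher than control by 0.88 (SE 0.15, adjusted p 0.000509) and than HD-homo by 2.34-fold, while HD-homo against control was -0.35 and not called (adjusted p 0.0833), although called in a fit without HD-het replicate 3 (adjusted p 0.0242). Offsets for GC content and length brought the rise in HD-het to 0.56, still called. Slc7a2, or CAT-2, which supplies arginine to nitric oxide synthase in activated cells, was high in both lines with an expanded allele. It had 5.12, 4.97 and 4.55 CPM in control, 11.9, 13.0 and 20.7 CPM in HD-het and 18.2, 18.9 and 26.8 CPM in HD-homo. The rise was 1.63 (SE 0.22) in HD-het and 2.12 (SE 0.22) in HD-homo. The mutant lines overlapped in their libraries, and the difference of 0.49 between them missed the threshold (adjusted p 0.0533). It was called without HD-het replicate 3 (adjusted p 0.00259), HD-homo replicate 1 (adjusted p 0.0368) or HD-homo replicate 2 (adjusted p 0.0436). Library totals (adjusted p 0.0142), no filter (adjusted p 0.0334), a replicate block (adjusted p 0.0238) and offsets for GC content and length (adjusted p 0.0017) also gave a call.

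Slc7a4, a relative of these carriers with no settled substrate, was low in control and near the limit of counting in HD-homo. It was counted 5, 19 and 15 times in control, 51, 70 and 63 times in HD-het and 5, 2 and 1 times in HD-homo. All 3 comparisons were called, with 2.45 (SE 0.34) for HD-het against control, -2.07 (SE 0.56, adjusted p 0.0102) for HD-homo against control and -4.52 (SE 0.44) for HD-homo against HD-het. Slc7a3, the cationic carrier CAT-3 of neurons, was counted 18 to 49 times in control, 49 to 61 times in HD-het and 10 to 30 times for HD-homo, and passed as higher in HD-het than in either other line.

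The leading sodium-coupled carriers of SLC38 were lower in 1 or both of the mutant lines. Slc38a2, or SNAT2, the carrier that cells raise when amino acids run short, was at 487, 527 and 547 CPM in control, 309, 307 and 429 CPM in HD-het and 307, 319 and 332 CPM in HD-homo. Both mutant lines lay below control in every library, with -0.58 (SE 0.12, adjusted p 0.00177) for HD-het and -0.71 (SE 0.12, adjusted p 0.0007) for HD-homo. Between the mutant lines the difference of -0.13 was not called (adjusted p 0.374), and its sign turned without HD-het replicate 3 (0.052). Slc38a1, or SNAT1, the glutamine carrier of neurons that feeds glutamate and GABA synthesis, was low in HD-homo alone. It had 129, 139 and 136 CPM in control, 109, 112 and 143 CPM in HD-het and 8.32, 8.91 and 4.70 CPM in HD-homo. HD-homo was 18.2-fold below control (log2 -4.19, SE 0.20, adjusted p 2.72e-08) and 16.4-fold below HD-het, and HD-het against control was -0.15 and not called (adjusted p 0.477) except with offsets for GC content and length (adjusted p 0.0307).

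Slc38a4, or SNAT4, a carrier best known from liver and placenta, went the other way. It was counted 51, 71 and 42 times in control, 41, 72 and 35 times in HD-het and 503, 338 and 208 times in HD-homo. This placed HD-homo at 14.0, 12.9 and 9.23 CPM, with control and HD-het both under 2 CPM and overlapping. HD-homo was 6.96-fold higher than control (log2 2.80, SE 0.19, adjusted p 3.76e-07). These 3 carriers are neighbours on chromosome 15, all on the minus strand: Slc38a1 at chr15:96571418-96643438, Slc38a2 at chr15:96687392-96699728, 44.0 kb away, and Slc38a4 at chr15:96994816-97055956, another 295 kb on. Within this stretch Slc38a1 was lower in HD-homo, Slc38a2 was lower in both mutant lines and Slc38a4 was higher in HD-homo.

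Other SLC38 carriers followed the general pattern of a rise in HD-het. Slc38a6 had 6.61, 5.23 and 6.13 CPM in control, 13.4, 18.2 and 15.4 CPM in HD-het and 4.31, 5.01 and 3.06 CPM in HD-homo. Slc38a7, or SNAT7, which exports glutamine from lysosomes, had 7.72, 7.30 and 7.41 CPM, then 11.8, 9.82 and 14.0 CPM, then 4.98, 4.05 and 6.79 CPM in the same order. Slc38a10 had 23.3, 22.7 and 18.8 CPM, 31.9, 30.0 and 38.2 CPM, and 22.6, 16.9 and 17.8 CPM. HD-het was above both other lines in every library for these 3 genes, with rises over control of 1.40 (SE 0.18), 0.66 (SE 0.18) and 0.62 (SE 0.14). Offsets for GC content and length brought the rise of Slc38a10 to 0.30, still called. In HD-homo, Slc38a6 and Slc38a7 fell below control by 0.52 (adjusted p 0.04) and 0.51 (adjusted p 0.0429).
Those calls in HD-homo were unsteady. The call of Slc38a6 was lost without control replicate 1 (adjusted p 0.115) or 3 (adjusted p 0.0854) and without HD-homo replicate 1 (adjusted p 0.0654) or 3 (adjusted p 0.125). That of Slc38a7 was lost without any 1 control library (adjusted p 0.0951, 0.0832 and 0.0788), without HD-het replicate 1 (adjusted p 0.0537), and without HD-homo replicate 1 (adjusted p 0.103) or 2 (adjusted p 0.127).

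Slc38a9, the lysosomal arginine sensor that reports to mTORC1, had 64 to 150 counts in control, 122 to 185 in HD-het and 93 to 178 for HD-homo, and was called higher in both mutant lines. Its call in HD-homo was lost without control replicate 1 (adjusted p 0.091) or 3 (adjusted p 0.0659) and without HD-homo replicate 1 (adjusted p 0.0721) or 3 (adjusted p 0.0546). Slc38a3, the glutamine carrier SNAT3 of astrocytes and liver, had 14 to 26 counts in control, 12 to 34 in HD-het and 1 to 5 for HD-homo, and was called lower in HD-homo than in either other line.

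The neutral exchangers of SLC1 moved in opposite directions. Slc1a4, or ASCT1, had 23.9, 26.0 and 20.8 CPM in control, 62.4, 63.2 and 80.9 CPM in HD-het and 29.5, 27.6 and 35.1 CPM in HD-homo. HD-het was 2.91-fold higher than control (log2 1.54, SE 0.13, adjusted p 3.68e-06). HD-homo lay above control by 0.38 (SE 0.13, adjusted p 0.0382), which was called with all 9 libraries but not without control replicate 1 (adjusted p 0.0976) or 3 (adjusted p 0.133), HD-het replicate 1 (adjusted p 0.0532) or 2 (adjusted p 0.0559), or HD-homo replicate 1 (adjusted p 0.0523) or 3 (adjusted p 0.141). Slc1a5, or ASCT2, the main glutamine importer of growing cells, was lower in both mutant lines. It had 43.4, 48.5 and 44.5 CPM in control, 15.5, 15.2 and 23.5 CPM in HD-het and 12.8, 9.41 and 13.6 CPM in HD-homo, with no overlap between lines. The fall was 1.34 on the log2 scale (log2 -1.34, SE 0.17) in HD-het and 3.81-fold (log2 -1.93, SE 0.18, adjusted p 5.47e-06) in HD-homo. HD-homo was below HD-het by 0.59 on this scale (log2 -0.59, adjusted p 0.0123), and by 0.36 without HD-het replicate 3 (log2 -0.36, adjusted p 0.048).

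Glutamate carriers of SLC1 clear synaptic glutamate. All were low in control and HD-het, and they differed in the line where they were highest. Slc1a3, or EAAT1, the form of astrocytes and radial glia, had 2.41, 1.55 and 1.05 CPM in control, 0.683, 0.743 and 1.47 CPM in HD-het and 10.5, 12.9 and 11.6 CPM in HD-homo. HD-homo was 7.01-fold higher than control (log2 2.81, SE 0.27, adjusted p 7.4e-06) and 12.5-fold higher than HD-het, with no overlap. HD-het overlapped control, and the difference of -0.84 between them (adjusted p 0.0486) was lost without control replicate 1 (adjusted p 0.188) or 2 (adjusted p 0.0716), HD-het replicate 1 (adjusted p 0.151) or 2 (adjusted p 0.172), or HD-homo replicate 1 (adjusted p 0.0544) or 3 (adjusted p 0.061). Without control replicate 1 it was -0.53. The summed level of 5 astrocyte markers, nearly all of it Aldoc with some Gfap, was 7.90 to 9.10 CPM in control and 6.34 to 7.65 CPM in HD-homo, and the part of astrocyte-like cells in the level of Slc1a3 was not tested.

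Slc1a1, or EAAT3, the neuronal form that also brings in cysteine, was counted 5, 0 and 1 times in control, 12, 11 and 10 times in HD-het and 75, 38 and 79 times in HD-homo. HD-homo was higher than HD-het by 2.53 (SE 0.47, adjusted p 0.000524). Against control, the values rest on 6 counts: they were 2.55 (adjusted p 0.0176) for HD-het and 5.08 (adjusted p 4.99e-05) for HD-homo, 1.77 (adjusted p 0.0669) and 4.30 without control replicate 2, and 4.40 and 6.93 without control replicate 1. Slc1a6, or EAAT4, the form of cerebellar Purkinje cells, had no count in control, 30, 49 and 26 counts in HD-het and 21, 6 and 9 counts in HD-homo. Set against 3 counts per control library, HD-het was at least 12.4-fold higher (adjusted p 1.35e-05) and HD-homo at least 4.06-fold higher (adjusted p 0.000293). HD-homo was below HD-het by 2.95-fold. Slc1a2, or EAAT2, the main glutamate carrier of the forebrain, was too low to test, at 4 to 9 counts in control, 8 to 16 in HD-het and 6 to 13 for HD-homo, and Slc1a7 never exceeded 1 count.

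**Figure D5:**
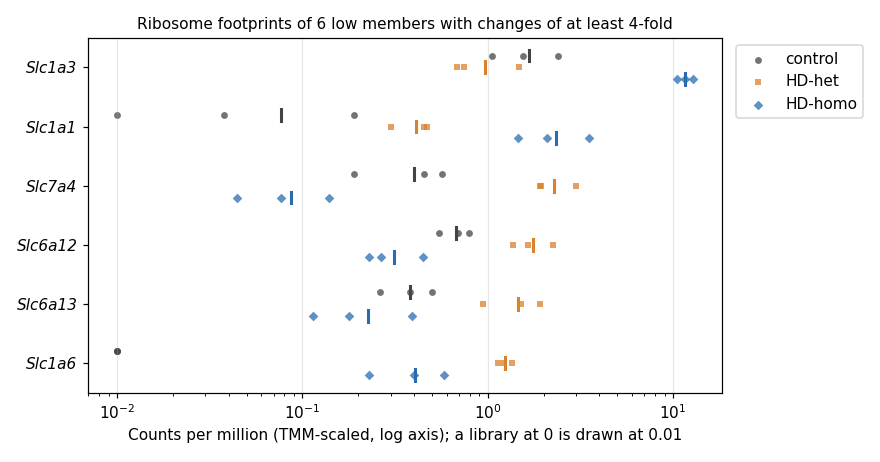
Points are single libraries and short bars are means of 3, in CPM on a log axis. The 6 members shown averaged under 5 CPM over all 9 libraries. Each had a called change of at least 4-fold with at least 1 CPM in the higher line. Slc1a3 and Slc1a1 are highest in HD-homo, and Slc7a4, Slc6a12, Slc6a13 and Slc1a6 are highest in HD-het.

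The most abundant SLC6 carrier, Slc6a6 or TauT, takes up taurine, an osmolyte that is plentiful in brain. It had 304, 333 and 293 CPM in control, 669.6, 655 and 603 CPM in HD-het and 166, 124 and 157 CPM in HD-homo. The lines stood well apart, with HD-het 2.07-fold above control (log2 1.05, SE 0.11, adjusted p 1.19e-05), HD-homo 2.08-fold below control (log2 -1.06, SE 0.11, adjusted p 1.33e-05) and HD-homo 4.32-fold below HD-het. Slc6a9, or GlyT1, the glycine carrier of glia and of some glutamatergic cells, had 17.0, 18.6 and 15.5 CPM, 35.3, 31.2 and 29.7 CPM, and 20.9, 24.7 and 16.8 CPM in control, HD-het and HD-homo. HD-het was higher than control by 0.91 (SE 0.14), and HD-homo overlapped control and was not called (0.29, adjusted p 0.113), although called without HD-homo replicate 3 (adjusted p 0.0224). Slc6a8, the creatine carrier, had 16.4, 16.9 and 19.4 CPM in control, 16.7, 18.2 and 21.1 CPM in HD-het and 12.5, 10.2 and 12.1 CPM in HD-homo. HD-homo was the line that differed, below control by 1.51-fold (log2 -0.60, SE 0.12, adjusted p 0.00228).

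Slc6a17, or NTT4, which loads neutral amino acids into synaptic vesicles, was the SLC6 member lower in both mutant lines and lowest in HD-het. It had 7.52, 7.28 and 8.28 CPM in control, 2.09, 2.23 and 3.69 CPM in HD-het and 5.45, 4.44 and 4.35 CPM in HD-homo. HD-het was 2.93-fold below control (log2 -1.55, SE 0.20) and HD-homo 1.61-fold (log2 -0.69, SE 0.19, adjusted p 0.0115). HD-homo exceeded HD-het by 0.86, or by 1.45 with offsets for GC content and length.

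The carriers of GABA described here were low. Slc6a11, or GAT3, never exceeded 9 counts. Slc6a12, or BGT1, which takes up betaine and GABA, was counted 18, 23 and 21 times in control, 59, 50 and 35 times in HD-het and 16, 6 and 6 times in HD-homo. Slc6a13, or GAT2, was counted 10, 21 and 7 times, 40, 70 and 20 times, and 14, 3 and 4 times in the same order. Both were higher in HD-het than in control, by 1.39 (SE 0.28, adjusted p 0.00123) and 1.91 (SE 0.38, adjusted p 0.00107), and lower in HD-homo than in HD-het, by 5.29-fold and 6.06-fold. For Slc6a13 that last difference was -2.60, or -3.34 without HD-homo replicate 1. HD-homo was below control in Slc6a12 by 2.02-fold (log2 -1.01, adjusted p 0.0348), a call lost without control replicate 1 (adjusted p 0.0726) or 3 (adjusted p 0.0988) or HD-homo replicate 2 (adjusted p 0.104) or 3 (adjusted p 0.0929). The 2 genes lie 4.85 kb apart on chromosome 6.

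The carriers for noradrenaline (Slc6a2), dopamine (Slc6a3) and serotonin (Slc6a4) could not be tested. Their summed counts were 3 to 5 in control, 5 to 23 in HD-het and 1 to 4 for HD-homo, with no single value above 13. Slc6a20a, an imino acid carrier with 6 to 12 counts in control, 12 to 37 in HD-het and 2 to 7 for HD-homo, was called higher in HD-het than in either other line, but shares much sequence with its neighbour Slc6a20b, so its reads may be uncertain.

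Some SLC36 carriers, though not all, move amino acids with protons, and several of the family sit on lysosomes. Slc36a1, or PAT1, had 6.95, 7.35 and 6.77 CPM in control, 10.9, 10.9 and 11.2 CPM in HD-het and 7.20, 5.89 and 7.76 CPM in HD-homo. Slc36a4, or PAT4, had 7.18, 6.30 and 6.92 CPM, 9.98, 13.2 and 13.0 CPM, and 9.12, 8.95 and 8.16 CPM. Both were higher in HD-het than in control, by 0.64 (SE 0.12) and 0.83 (SE 0.13), and no HD-het library overlapped another line. With offsets for GC content and length the rises were 0.31 and 0.52, still called, but the differences between HD-homo and HD-het were no longer called (adjusted p 0.0943 and 0.376). Slc36a4 was also called higher in HD-homo than in control (log2 0.37, adjusted p 0.0401), but not without any 1 control library (adjusted p 0.0756, 0.144 and 0.0777), HD-het replicate 2 (adjusted p 0.0534) or 3 (adjusted p 0.0521), or HD-homo replicate 1 (adjusted p 0.0912) or 2 (adjusted p 0.0719).

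Slc43a3, which carries purine nucleobases rather than amino acids, had the largest difference of all members tested in both comparisons with HD-homo. It was counted 1, 0 and 1 times in control, 10, 3 and 2 times in HD-het and 957, 604 and 650 times in HD-homo. HD-homo thus lay at 26.6, 23.1 and 28.8 CPM, rank 9 of the members tested per kilobase. The ratio of summed counts per total was 1263 between HD-homo and control (95% exact binomial interval 349 to 10432, counting error only), and HD-homo exceeded HD-het by 7.15 on the log2 scale (SE 0.31, adjusted p 8.42e-09), or by 8.16 without HD-het replicate 1. Between HD-het and control the ratio of summed counts per total was 8.23 (1.91 to 74.2). The fitted log2 fold change of Slc43a3 there, 2.86, was called with all libraries (adjusted p 0.0188). It was not called without control replicate 2 (adjusted p 0.0791) or HD-het replicate 1 (adjusted p 0.115). Its family members Slc43a2 and Slc43a1 carry branched-chain and aromatic amino acids. Slc43a2, with 77 to 146 counts in control, 175 to 281 in HD-het and 59 to 109 for HD-homo, was called higher in HD-het than in either other line. Slc43a1, which lies 73.0 kb from Slc43a3 on chromosome 2, had 5 to 34, 15 to 24 and 3 to 10 counts, and was called lower in HD-homo than in HD-het only. That call was lost without HD-het replicate 1 (adjusted p 0.0597) or 3 (adjusted p 0.108) or HD-homo replicate 1 (adjusted p 0.125) or 2 (adjusted p 0.0846), and HD-homo was called lower than control without control replicate 1 (adjusted p 0.0231) or HD-homo replicate 3 (adjusted p 0.0226).

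Slc7a6os, whose product helps RNA polymerase II into the nucleus, ends 1.72 kb from Slc7a6 on the opposite strand of chromosome 8. It had 59.8, 59.0 and 58.1 CPM in control, 26.6, 24.5 and 27.9 CPM in HD-het and 91.9, 68.2 and 92.5 CPM in HD-homo. HD-het was 2.24-fold below control (log2 -1.16, SE 0.12) and HD-homo above control by 0.51 (SE 0.11, adjusted p 0.00345), so it moved against most of the carriers, and Slc7a6 beside it was not called.

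Few members remained. Slc7a9, a light chain of kidney, and Slc36a2 had 12 to 49 and 3 to 15 counts. Slc7a9 was not called in any comparison, but without HD-het replicate 3 it was called in HD-het against control (adjusted p 0.0384) and in HD-homo against HD-het (adjusted p 0.0316). Slc36a2 was called only as lower in HD-homo than in HD-het, and leaving out any library other than control replicate 2 or HD-homo replicate 1 ended that call, with adjusted p from 0.0539 to 0.133. Slc7a8, or LAT2, was too low to test in this fit, at 0 to 1 counts in control, 0 to 2 in HD-het and 27, 9 and 13 in HD-homo.

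Carriers outside these families were called in both directions. Of 16 other amino acid and vesicular carriers tested, 5 were higher and 3 lower in HD-het than in control, or 31.2% and 18.8% beside 31.0% and 29.1% of all genes (median log2 fold change 0.11). In HD-homo against control 2 were higher and 3 lower, or 12.5% and 18.8% beside 23.3% and 22.3% (median -0.10), and in HD-homo against HD-het 4 and 5, or 25.0% and 31.2% beside 34.6% and 32.8% (median -0.04). The share called higher in HD-het against control was near that of all genes. The lysosomal pair Slc17a5, or sialin, and Ctns, which exports cystine, was higher in HD-het. Slc17a5 had 13.2, 13.1 and 13.1 CPM in control, 20.1, 22.8 and 21.8 CPM in HD-het and 9.60, 11.1 and 9.89 CPM in HD-homo, and Ctns averaged 6.02 ± 0.363, 11.9 ± 2.41 and 4.57 ± 0.918 CPM. Their differences between HD-homo and HD-het were -1.08 (SE 0.10) and -1.39 (SE 0.18).

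Enzymes that make or use the carried substrates were also called in both directions. Of 34 tested, 7 were higher and 13 lower in HD-het than in control, or 20.6% and 38.2% beside 31.0% and 29.1% of all genes (median log2 fold change -0.20). In HD-homo against control 11 were higher and 12 lower, or 32.4% and 35.3% beside 23.3% and 22.3% (median -0.05), and in HD-homo against HD-het 14 and 9, or 41.2% and 26.5% beside 34.6% and 32.8% (median 0.27). The shares were not tested against those of all genes. Glul, which makes glutamine from glutamate, was higher in HD-homo, the line with the most Slc1a3. It averaged 22.6 ± 0.488 CPM in control and 23.4 ± 2.01 CPM in HD-het, and was at 101, 76.1 and 146 CPM in the libraries of HD-homo, a rise of 2.26 over control (SE 0.19). Ckb, the brain creatine kinase, averaged 201 ± 8.94 CPM in HD-het, 74.9 ± 1.34 CPM in control and 21.2 ± 4.45 CPM in HD-homo, where Slc6a8 was also lowest. Got1, which interconverts aspartate and glutamate, and Odc1, which turns ornithine into polyamines, were lower in HD-het than in control, with log2 fold changes of -1.31 (SE 0.08) and -1.04 (SE 0.09). Pycr1, the last step of proline synthesis, was higher in HD-het by 1.03 (SE 0.15) and in HD-homo by 1.27 (SE 0.15). Shmt1, which converts serine to glycine, was higher by 1.36 in HD-homo than in HD-het (SE 0.11). Gad1 and Gad2, which make GABA, were too low to test.

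Among 27 regulators and partners tested, 10 were higher and 6 lower in HD-het than in control, or 37.0% and 22.2% beside 31.0% and 29.1% of all genes (median log2 fold change 0.10). HD-homo against control gave 8 higher and 4 lower, or 29.6% and 14.8% beside 23.3% and 22.3% (median 0.03), and HD-homo against HD-het gave 7 and 13, or 25.9% and 48.1% beside 34.6% and 32.8% (median -0.24). Apart from Atf4 and Trib3, the named changes were these. Myc, which induces Slc1a5 and Slc7a5 in growing cells, averaged 357 ± 12.3 CPM in control, 168 ± 12.5 in HD-het and 288 ± 58.7 for HD-homo, lower in HD-het than in control (log2 -1.09, SE 0.13). Slc9a3r1, a scaffold that anchors carriers at the membrane, averaged 80.2 ± 3.45 CPM in control, 24.7 ± 4.96 in HD-het and 16.7 ± 3.95 for HD-homo, lower in both mutant lines. Bach1, a repressor at antioxidant response elements, averaged 14.5 ± 1.66, 11.4 ± 1.12 and 26.5 ± 3.01 CPM, and HD-homo exceeded HD-het by 1.21 (SE 0.13).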

How the data were processed

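Monosome footprints of 26 to 32 nt were sequenced from 9 libraries, 3 per line. The authors deposited raw counts per gene symbol, 1 column per library, not normalized and not pooled. Their processing notes name cutadapt, Bowtie 1.0.1 and build mm10. The counting program, annotation, use of strand and any collapsing of duplicate reads are not given in the sources used here, so reads shared with overlapping genes, such as Trmt5 across Slc38a6 and Ccdc24 across Slc6a9, cannot be told apart, and counting limits cover counting error only. All 67 members matched a RefSeq symbol (GRCm38.p6, source of the coordinates). Coding lengths for 64 came from GENCODE M21.

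Counts were tested with edgeR 4.0.16 (limma 3.58.1, R 4.3.3): TMM factors, filterByExpr by group (minimum count 10), a quasi-likelihood F test over all 9 libraries with line as the only term, and Benjamini-Hochberg adjustment over 12678 genes at 0.05. SE is the size of the log2 fold change divided by the square root of F. The script was tested on simulated data. Alternatives were RLE factors, library totals, DESeq2 1.42.0, other filters and thresholds, only the 6 libraries compared, a replicate block, a table without 282 rows under older symbols, loess offsets (span 0.5) for GC content and length, and leaving out each library. The members and lists were chosen with earlier results of these data known. A member was given with all library values if its mean was at least 5 CPM, or if called with a change of at least 4-fold and at least 1 CPM in the higher line; other members have counts or ranges. List genes were named if called with at least 2-fold and 10 CPM in the higher line. The promoter search, the light chain ratio and the count shares were added after the values were seen. The values of 1 member are not reported here.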

Additional observations from a re-analysis of the deposited data

How the results depend on the processing

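Among the 84 log2 fold changes of the 28 members given library by library, 69 were called. Of these, 57 remained called under every alternative that tested them, 12 were lost under at least 1, and none turned sign. All 18 alternatives gave an adjusted p for 43 of the 57, and fewer did for the other 14. Among the 15 not called, 7 were called under some alternative and 6 turned sign under some: Slc36a1 in HD-homo against control (0.0076 with library totals, 0.083 with offsets for GC content and length, and -0.097 to 0.087 with 1 library left out), Slc38a2 in HD-homo against HD-het (0.11 with offsets, -0.21 to 0.052), Slc38a4 in HD-het against control (-0.035 with library totals, -0.024 without a filter, -0.21 with offsets, -0.13 to 0.072), Slc6a8 in HD-het against control (-0.16 with offsets, -0.026 to 0.16), Slc7a5 in HD-homo against control (-0.11 to 0.24) and Slc7a6 in HD-het against control (-0.13 to 0.018). The cause was not tested. Counts of members called moved by over 1.5 times under these settings. Requiring at least 2-fold left 17 in HD-het against control (14 higher, 3 lower) and 12 in HD-homo against control (6 and 6). An adjusted p-value under 0.01 left 13 in HD-homo against control (7 and 6). With at least 10 counts in every library, 21 were called in HD-homo against HD-het, 17 of them lower, as fewer members were tested. Leaving out 1 library gave 26 to 29 in HD-het against control (22 to 24 higher, 4 to 5 lower), 15 to 22 in HD-homo against control (7 to 11 higher, 8 to 12 lower), 30 to 32 in HD-homo against HD-het (6 to 8 higher, 24 to 26 lower) and 33 to 34 for any difference. Offsets for GC content and length moved the members' median in HD-het against control to 0.56 and that of all genes to -0.13, and kept 24 higher. Members under about 10 counts per library limit what depth can show.

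Same-numbered libraries did not deviate together (correlations of deviations from the line means -0.36 to 0.17 over 9 pairs), so the numbers were read as names. With a replicate block, 24 members were higher and 4 lower in HD-het against control, 9 and 11 in HD-homo against control, 7 and 25 in HD-homo against HD-het, and 34 differed in any way.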
